A study of Harpegnathos saltator with 32 samples.

Results

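The muscle gene Mlc2 and the 59 genes whose RNA varied most closely with it were examined in single central brains of the ant Harpegnathos saltator. Mlc2 (LOC105192051) carries the fly symbol of the regulatory light chain of muscle myosin. The members were chosen by their measured values: they are the 60 genes with the highest Pearson correlation with Mlc2 over all 32 libraries on log2(FPKM + 0.5), Mlc2 included. They were drawn from 9433 genes with at least 1 FPKM (fragments per kilobase of transcript, scaled for depth) in at least 7 libraries, out of 14001 genes measured. All 60 passed that filter because the rule required it.

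The groups were 8 brains of gamergates given siRNA against Kr-h1, 9 of gamergates given GFP siRNA, 7 of workers given Kr-h1 siRNA and 8 of workers given GFP siRNA. Gamergates are workers that have become reproductive, and the labels add that these were duelers. All ants were labelled day 10. All 4 groups, controls included, had dicer-substrate siRNA in glucose with a transfection reagent injected into the head, and the brain was dissected 10 hours later. The protocol text writes the control target as GRP and the titles as GFP. Each library is polyadenylated RNA of 1 brain, and strain or colony is not in the labels used here. Injection does not direct the siRNA to 1 cell type.

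In striated muscle, myosin heavy and light chains form thick filaments that pull on thin filaments of actin, tropomyosin and troponin, and Z-discs anchor the thin filaments. Calcium released from the sarcoplasmic reticulum binds troponin C, and the troponin complex with tropomyosin then exposes myosin binding sites on actin. Muscles lie close to the brain in an insect head, and neurons use other myosin, actinin and tropomyosin products for their cytoskeleton. In a bulk sample, fewer cells of a type and less RNA per cell cannot be told apart. A contribution of head muscle to these dissected samples was not tested.

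Depth read from the steps between low FPKM values ranged from 4.67 to 13.3 M reads per library, with a median of 7.75 M. Worker GFP replicates 4 and 5 stood apart from the other libraries. Of 1056 genes with a median of 5 to 20 reads, 35.6% were listed at 0 in replicate 4 and 19.5% in replicate 5, against at most 9.47% elsewhere. Kr-h1, the target, had a median of 0.386 FPKM (0.114 to 1.01) in Kr-h1 gamergates and 0.809 FPKM (0.480 to 7.57) in GFP gamergates. In workers its median was 0.424 FPKM (0.297 to 0.840) after Kr-h1 siRNA and 0.672 FPKM (0.369 to 2.54) after GFP siRNA. The Kr-h1 groups overlapped their controls, and the gene lay below the filter. Neuronal genes were present in every library, where 14 genes of neurons and synapses summed to between 716 and 1226 FPKM.

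The correlations that chose the members fell off quickly. In order after Mlc2 came LOC105188754 (r = 0.95), LOC105188751 (0.94), wupA (0.94), Tm2 (0.93), TpnCI (0.91), Mf (0.83), Scp1 (0.82), Mlc1 (0.81) and LOC105188753 (0.80). Only 6 members, Mlc2 among them, had an r of at least 0.9, while 14 had at least 0.7 and 45 had at least 0.5. The last members were LOC105192245, LOC112589087 and LOC105187890, each with r = 0.48. The first genes outside, Ssu72, LOC105190938 and LOC105180860, also had r = 0.48, so the edge of the set is not a gap. These correlations are the selection itself and were given no test.

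**Figure D1:**
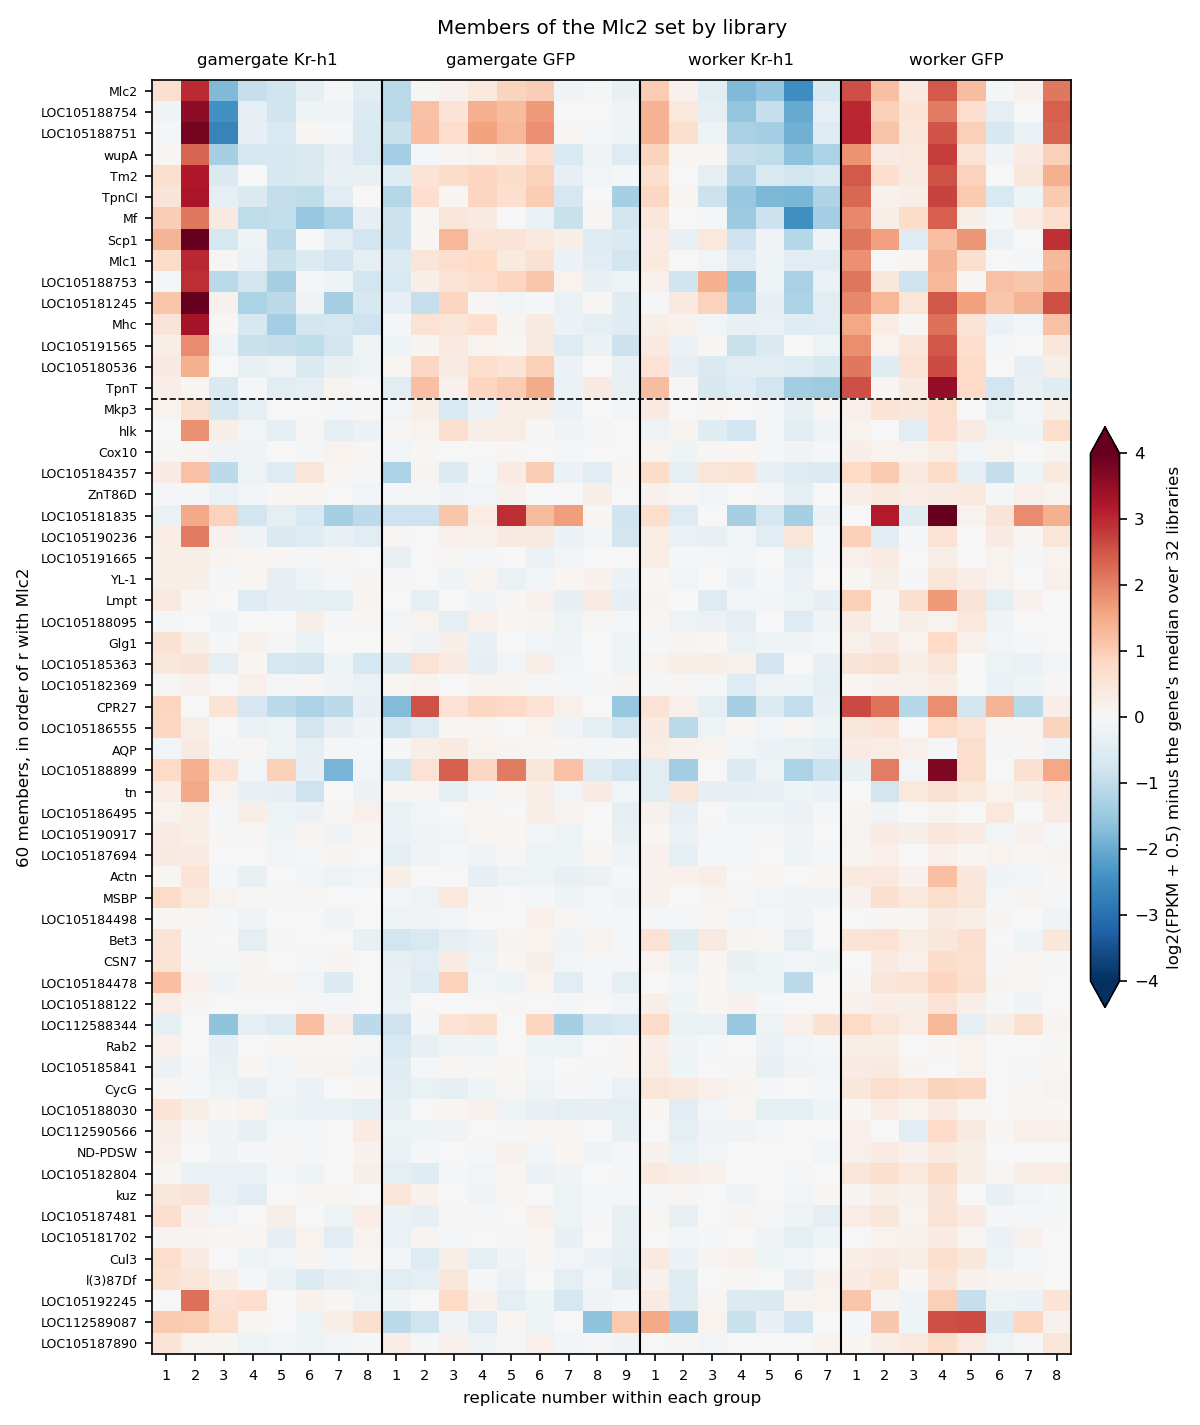
Each row is 1 of the 60 members in order of correlation with Mlc2 and each column 1 brain, with colour giving log2(FPKM + 0.5) minus the gene's median over the 32 libraries. Above the dashed line lie the 15 members with the highest r, each highest in gamergate Kr-h1 replicate 2 or worker GFP replicate 4, while most rows below it stay pale.

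The members were divided into an upper part, all with wide ranges, and a lower part in which most but not all had narrower ones. The division was placed at rank 15 after the values were seen. In the first 15 members the highest library was between 5.71 and 63.8 times the gene's median, and the SD of log2 values ran from 0.78 to 1.43. In the other 45 the highest library was a median of 1.62 times the gene's median, and 10 of them reached 3 times. Over all 9433 genes, 8.45% reached 3 times their median, against 25 of the 60 members. Mlc2 is itself far above its median in a few brains, and choosing genes that follow it favours genes with peaks there. The higher share among members therefore follows in part from the choice and supports nothing. Pairs of genes within the first 15 had a median r of 0.81 (0.33 to 0.99), and pairs within the other 45 a median r of 0.41 (-0.22 to 0.89). Both parts are cut from the ranking by r with Mlc2, which favours higher pairwise r in the first. This contrast therefore describes the ranking and supports nothing.

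**Figure D2:**
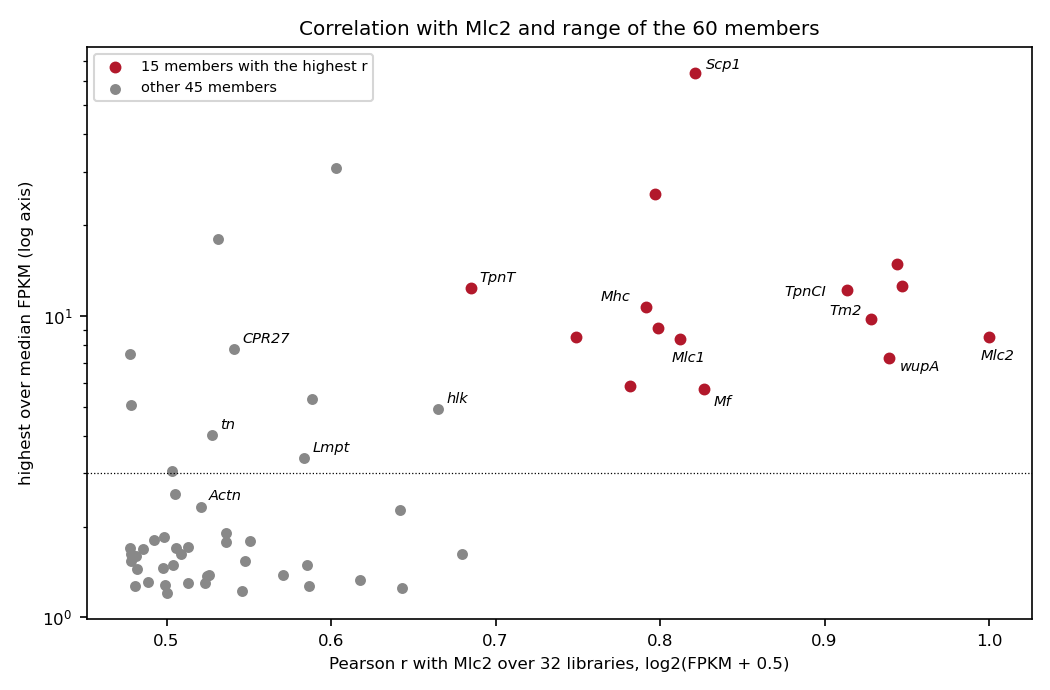
Each point is a member, placed by its Pearson r with Mlc2 and by its highest FPKM over its median FPKM on a log axis, with the dotted line at 3. The 15 members with the highest r all lie above 5 on the vertical axis, Scp1 highest at 63.8, and most of the other 45 lie below the line.

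The 60 members included 29 with a symbol in the RefSeq annotation and 31 known only by number, a share of 48.3% named against 41.0% of all genes tested. The annotation calls 57 protein coding and 3 long noncoding (LOC105186555, LOC112588344 and LOC112589087). LOC105188754 and LOC105188751 are next to each other in the annotation and LOC105188753 lies 2 places on, and these are ranks 2, 3 and 10. Rab2 and LOC105182804 are also 2 places apart. Some members overlap another annotated gene that is no member. Mlc2 overlaps LOC105192052 (median 1.21 FPKM) by 1160 bp, and ZnT86D overlaps LOC105185324 (median 24.3 FPKM) by 4215 bp. Whether the authors' counting used strand or shared reads between such genes is not stated in the labels. The values of neighbouring or overlapping genes may therefore not be independent.

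Mlc2 had 10.8, 57.5, 1.62, 3.37, 3.67, 5.04, 6.60 and 4.75 FPKM in gamergate Kr-h1 replicates 1 to 8. It had 2.91, 6.95, 7.64, 9.17, 13.1, 13.9, 6.04, 6.48 and 5.41 FPKM in gamergate GFP replicates 1 to 9. In workers it had 14.1, 7.66, 4.76, 1.63, 1.97, 0.811 and 4.18 FPKM in Kr-h1 replicates 1 to 7. It had 43.1, 16.1, 8.91, 39.1, 16.6, 6.38, 7.67 and 30.5 FPKM in GFP replicates 1 to 8. The 4 highest brains were gamergate Kr-h1 replicate 2 and worker GFP replicates 1, 4 and 8, and all 4 groups overlapped. Recovered reads for Mlc2 ran from 52 in worker Kr-h1 replicate 4 to 2014 in gamergate Kr-h1 replicate 2, so no library was near 0.

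The other thick filament members followed the same brains. Mlc1, the essential (alkali) light chain, had a lowest, median and highest value of 9.38, 14.2 and 148 FPKM in Kr-h1 gamergates and 10.6, 23.5 and 31.4 FPKM in GFP gamergates. In workers Mlc1 had 12.4, 15.7 and 23.3 FPKM after Kr-h1 siRNA and 16.9, 23.3 and 64.4 FPKM after GFP siRNA. Mhc, the muscle myosin heavy chain, had 2.33, 4.04 and 72.1 FPKM in Kr-h1 gamergates and 4.71, 7.36 and 10.9 FPKM in GFP gamergates. In workers Mhc had 4.64, 5.46 and 8.03 FPKM after Kr-h1 siRNA and 5.70, 9.23 and 32.5 FPKM after GFP siRNA. Its next highest Kr-h1 gamergate was at 9.91 FPKM, so 1 brain sets the top of that group.

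Mf, myofilin of the fly thick filament, had 1.52, 3.26 and 24.3 FPKM in Kr-h1 gamergates and 2.62, 5.29 and 7.49 FPKM in GFP gamergates. Mf had 0.540, 2.66 and 7.41 FPKM in Kr-h1 workers and 4.99, 7.64 and 29.9 FPKM in GFP workers. Its highest brain was worker GFP replicate 4, not gamergate Kr-h1 replicate 2.

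Among thin filament members, wupA encodes troponin I, the inhibitory subunit. It had 2.32, 4.22 and 35.7 FPKM in Kr-h1 gamergates and 2.27, 6.42 and 11 FPKM in GFP gamergates. In workers wupA had 1.80, 3.32 and 12.8 FPKM after Kr-h1 siRNA and 6.01, 9.65 and 48.2 FPKM after GFP siRNA. Tm2, a tropomyosin that lies along actin, had 4.44, 5.73 and 69.7 FPKM in Kr-h1 gamergates and 4.86, 10.8 and 14 FPKM in GFP gamergates. Tm2 had 2.86, 4.46 and 11.8 FPKM in Kr-h1 workers and 7.06, 12.8 and 43.6 FPKM in GFP workers. Both genes overlapped between all groups.

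TpnCI, a troponin C that binds calcium, was a low member, with a median of 1.75 FPKM over all libraries and 21.3 FPKM in gamergate Kr-h1 replicate 2. Its median was 1.22 FPKM in Kr-h1 gamergates, 1.88 FPKM in GFP gamergates, 0.467 FPKM in Kr-h1 workers and 3.15 FPKM in GFP workers. TpnT, the troponin subunit that binds tropomyosin, had 3.31, 4.94 and 6.29 FPKM in Kr-h1 gamergates and 3.67, 6.77 and 15.3 FPKM in GFP gamergates. In workers TpnT had 1.63, 3.18 and 12.8 FPKM after Kr-h1 siRNA and 2.83, 6.15 and 64.1 FPKM after GFP siRNA. TpnT was thus not high in gamergate Kr-h1 replicate 2, where it had 5.51 FPKM.

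**Figure D3:**
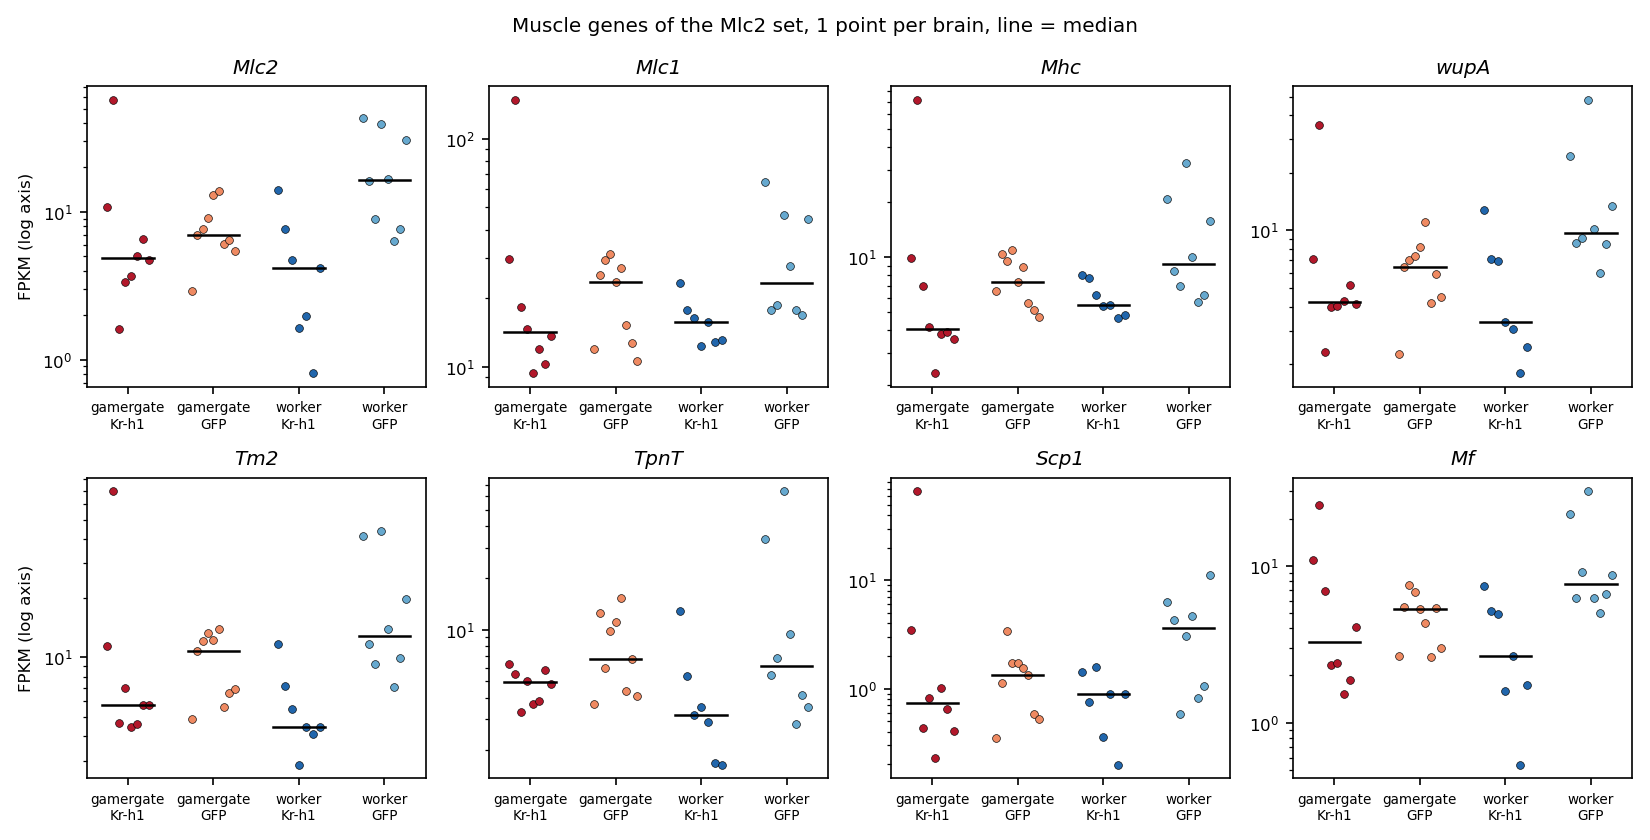
Each panel shows FPKM on a log axis for 1 muscle gene, with 1 point per brain and the group median as a line. Gamergate Kr-h1 replicate 2 is the top point of its group in 7 of the panels and lies inside the group for TpnT, and worker GFP replicates 1 and 4 are the top points for wupA, Tm2, TpnT, Mf and Mhc in worker controls.

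Scp1, a sarcoplasmic calcium-binding protein, had 3.46, 66.4, 0.438, 0.828, 0.227, 1.02, 0.647 and 0.406 FPKM in gamergate Kr-h1 replicates 1 to 8. In GFP gamergates it ran from 0.354 to 3.39 FPKM with a median of 1.33. In workers it ran from 0.199 to 1.57 FPKM after Kr-h1 siRNA and from 0.587 to 11.1 FPKM after GFP siRNA, where replicate 8 was highest. Scp1 and TpnT therefore peaked in different brains, although both were chosen for varying with Mlc2.

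The balance of these products differed between the brains that were rich in Mlc2. The ratio of TpnT to Mlc2 FPKM was 0.0957 in gamergate Kr-h1 replicate 2, and 0.778, 1.64 and 0.116 in worker GFP replicates 1, 4 and 8, a 17.1-fold spread. The ratio of Scp1 to Mlc2 was 1.15 in gamergate Kr-h1 replicate 2, and 0.146, 0.0776 and 0.365 in worker GFP replicates 1, 4 and 8, a 14.9-fold spread. Among these 4, the brains with less TpnT relative to Mlc2 had more Scp1. Over all 32 brains this did not hold throughout: the ratios of TpnT and Scp1 to Mlc2 were 1.48 and 0.453 in worker Kr-h1 replicate 5, and 0.444 and 0.129 in worker GFP replicate 6. Over the same 4 brains the ratios to Mlc2 of Tm2, Mlc1, Mhc, Mf, TpnCI and wupA each spread by between 1.87- and 2.79-fold, and that of Lmpt by 4.71-fold. Each ratio was taken within 1 library, so library scaling does not enter it, and each brain was measured once.

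**Figure D4:**
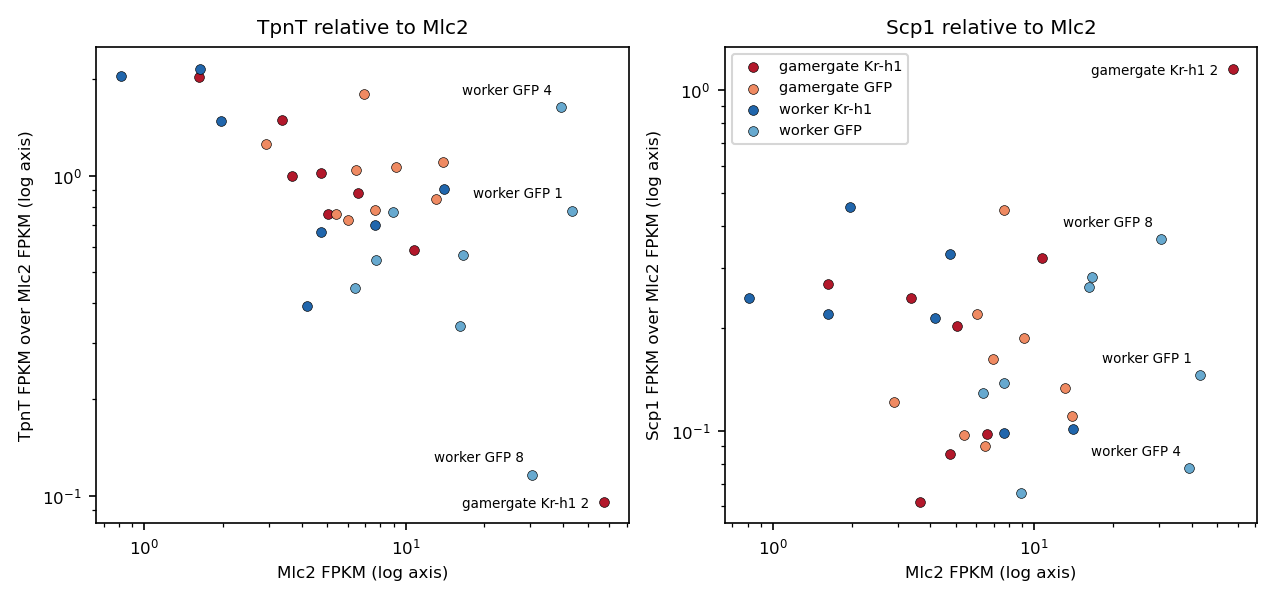
Both panels plot 1 point per brain with Mlc2 FPKM on the horizontal axis and the ratio of TpnT (left) or Scp1 (right) to Mlc2 on the vertical, all on log axes. Of the 4 labelled brains with most Mlc2, gamergate Kr-h1 2 and worker GFP 8 lie at the bottom for TpnT (0.0957 and 0.116) and at the top of the 4 for Scp1 (1.15 and 0.365).

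The other members of the upper part have no symbol. LOC105188751 was the most abundant of them, at 183 FPKM in gamergate Kr-h1 replicate 2 and between 1.51 and 12.6 FPKM in the other 7 Kr-h1 gamergates. It had 6.42 to 44.6 FPKM in GFP gamergates, 2.84 to 33.1 FPKM in Kr-h1 workers and 7.71 to 105 FPKM in GFP workers. Its neighbour LOC105188754 was at 126 FPKM in gamergate Kr-h1 replicate 2 and at 84.2, 43.9 and 54.3 FPKM in replicates 1, 4 and 8 of the worker controls. LOC105188753 was lower, with a median of 2.36 FPKM and a highest value of 21.5 FPKM in the same gamergate. LOC105181245 had 79.7 FPKM in that brain, with 0.957 to 7.33 FPKM in the other Kr-h1 gamergates. LOC105191565 and LOC105180536 were instead highest in worker GFP replicate 4, at 48.4 and 9.39 FPKM.

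Further muscle proteins stood in the lower part of the set. Actn, the alpha-actinin that crosslinks actin at the Z-disc and is also used outside muscle, had 12.3, 14.2 and 22.5 FPKM in Kr-h1 gamergates and 11.8, 13.1 and 17.7 FPKM in GFP gamergates. In workers Actn had 14.9, 16.1 and 18.1 FPKM after Kr-h1 siRNA and 13.2, 18.6 and 35.1 FPKM after GFP siRNA. Its range was narrow beside that of Mlc2, and its highest brain was worker GFP replicate 4. Lmpt, a LIM domain protein, was highest in the same brain at 31.2 FPKM, against a median of 9.25 FPKM. The gene tn (thin in flies, which keeps muscle intact) had a median of 0.816 FPKM and 3.28 FPKM in gamergate Kr-h1 replicate 2. TpnCI, TpnT, Scp1, Lmpt and tn are on none of the marker lists and were named as muscle genes after their values were seen.

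The remaining members have no single theme by symbol. Several belong to housekeeping machinery, such as Cox10 and ND-PDSW of the mitochondrial respiratory chain and its assembly, Cul3 and CSN7 of ubiquitin ligase control, and Rab2, Bet3 and Glg1 of the Golgi. Mkp3 is a phosphatase of MAP kinases, CycG a cyclin, kuz a membrane protease that cleaves Notch, ZnT86D a zinc transporter, AQP an aquaporin, MSBP a steroid binding protein and YL-1 a chromatin remodelling subunit. The levels of these varied little: the highest library was 1.25 times the median for Cox10, 1.2 times for Rab2 and 1.85 times for CycG. The 5 most abundant members by median were LOC105185363 (142 FPKM), Mkp3 (89.8), LOC105185841 (82.9), CycG (73.2) and LOC105190917 (72.4), and all are in the lower part.

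The 5 least abundant were LOC105181835 (median 0.744 FPKM), tn (0.816), hlk (0.931), Scp1 (1.04) and LOC105180536 (1.10). LOC105181835 was listed at 0 in at least 1 brain each of Kr-h1 gamergates and Kr-h1 workers and reached 23.0 FPKM in worker GFP replicate 4. LOC105188899 had a like profile, with 23.6 FPKM in that brain and a median of 1.31 FPKM. CPR27, a cuticular protein by its symbol, had a median of 1.84 FPKM and 14.2 FPKM in worker GFP replicate 1, with 13.3 FPKM in its highest GFP gamergate.

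The brains that held the highest values were few. Of the first 15 members, 10 were highest in gamergate Kr-h1 replicate 2 and 5 in worker GFP replicate 4. Of the other 45, 21 were highest in worker GFP replicate 4, 7 in gamergate Kr-h1 replicate 1, 5 each in gamergate Kr-h1 replicate 2 and worker GFP replicate 5, and 7 elsewhere. Among all genes tested, 14.7% were highest in worker GFP replicate 4, 10.5% in gamergate Kr-h1 replicate 1, 7.00% in worker GFP replicate 5 and 1.80% in gamergate Kr-h1 replicate 2. Mlc2 itself had rank 1 in gamergate Kr-h1 replicate 2 (57.5 FPKM) and rank 3 in worker GFP replicate 4 (39.1 FPKM). Members were chosen for following Mlc2, so their peaks in these brains follow in part from the choice. Worker GFP replicate 4 is also the library with the most genes listed at 0. The part of its low complexity in these values was not tested.

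The median r of the 59 other members was 0.50 without worker GFP replicate 4 (29 at 0.5 or above) and 0.55 without gamergate Kr-h1 replicate 2 (43 at 0.5 or above). Without the 2 brains farthest from the median of Mlc2, it was 0.54 with a lowest value of 0.17. On ranks (Spearman) it was 0.53, from 0.23 upwards. Within the 4 groups, the medians were 0.57 in Kr-h1 gamergates, 0.56 in GFP gamergates, 0.56 in Kr-h1 workers and 0.57 in GFP workers. The lowest within-group values were -0.07, -0.61, -0.24 and 0.01 in the same order, so single members did not follow Mlc2 in every group. After group and batch means were removed the median was 0.45, and all 59 remained above 0. All these correlations come from the brains that chose the members, so they describe the set and give it no support.

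Most genes matched by symbol from the muscle lists were not members. Of 65 listed symbols for filaments, Z-discs, calcium handling and muscle development, 35 matched a measured gene by name. Symbols without a match say nothing about expression. Of the 35 matched genes, 34 passed the filter and 7 were members: Mlc2, Mlc1, Mhc, Mf, wupA, Tm2 and Actn. Only 13 of the 34 had an r with Mlc2 above 0, and their median r was -0.12. Some non-members had group medians above those of Mlc2 (4.18 to 16.4 FPKM). Examples are Mef2 (58.8 to 72.5), Ca-alpha1D (52.1 to 63.6) and RyR (27.8 to 51.3), while others such as mbc (2.13 to 2.54) were lower. Which cells of the sample made these listed products was not tested, so their r need not describe muscle. By list, 4 of 5 thick filament genes, 2 of 7 thin filament genes and 1 of 7 Z-disc genes were members, against 0 of 7 for calcium and membrane and 0 of 8 for muscle development.

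The listed muscle genes farthest from Mlc2 were Zasp66 (r = -0.43), a Z-disc protein, Scgdelta (-0.41), a sarcoglycan of the membrane, and tmod (-0.41), which caps thin filaments. Zasp66 had a median of 10.7 FPKM (7.40 to 14.5) in Kr-h1 gamergates and 12.7 FPKM (9.27 to 18.4) in GFP gamergates. In workers Zasp66 had 16.8 FPKM (10.3 to 20.3) after Kr-h1 siRNA and 11.3 FPKM (7.00 to 13.9) after GFP siRNA. Zasp66 was therefore measured in every brain at levels above the overall Mlc2 median of 6.77 FPKM. Tm1, another tropomyosin, came closest without entering, at r = 0.43.

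Summed lists were compared by group. The 5 thick filament genes summed to a median of 33.8 FPKM (26.6 to 310.2) in Kr-h1 gamergates and 55.1 FPKM (29.9 to 66.0) in GFP gamergates. In workers they summed to 32.1 FPKM (25.6 to 58.3) after Kr-h1 siRNA and 61.0 FPKM (42.7 to 155.1) after GFP siRNA. The 7 calcium and membrane genes summed to a median of 164 FPKM (130 to 216) in Kr-h1 gamergates and 169 FPKM (148 to 303) in GFP gamergates. In workers those 7 summed to 165 FPKM (137 to 183) after Kr-h1 siRNA and 140 FPKM (120 to 157) after GFP siRNA. The highest calcium and membrane sum in Kr-h1 gamergates was in replicate 2, the brain with most Mlc2. That brain also had the highest sum of its group for the thick filament, thin filament, Z-disc and muscle development lists. In GFP workers the highest calcium and membrane sum was in replicate 6, a brain with 6.38 FPKM of Mlc2.

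No gene from the lists for muscle fuel use, fat body, haemocytes, retina, glia, neurons or trachea and cuticle was a member. Against Mlc2, 0 of 6 haemocyte genes, 3 of 10 retina genes, 2 of 6 fat body genes, 4 of 11 glia genes, 7 of 14 neuron and synapse genes, 3 of 8 muscle fuel genes and 1 of 9 trachea and cuticle genes had r above 0. Over all genes tested, 4772 of 9433 had r above 0. Their sums covered wide ranges of their own, for example 64.2 to 648 FPKM for retina in Kr-h1 gamergates and 80.0 to 941 FPKM in GFP workers.

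The first comparison asked how the set differed in workers with Kr-h1 knockdown. None of the 60 members was called at an adjusted p of 0.05 (limma over 9433 genes, Benjamini-Hochberg), against a background of 0% of all genes. Mlc2 averaged 5.01 ± 4.62 FPKM (SD, n = 7) after Kr-h1 siRNA and 21.1 ± 14.6 FPKM (SD, n = 8) after GFP siRNA. Its log2 difference was -2.01 ± 0.52 (SE; limma adjusted p = 0.144, unadjusted p = 0.000525). All 8 control brains lay above the knockdown median of 4.18 FPKM, and the ranges overlapped. Mf (-1.58 ± 0.40) and ZnT86D (-0.26 ± 0.06) had smaller unadjusted p than Mlc2, with the same limma adjusted p of 0.144.

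All 60 members had a log2 difference below 0 in workers, with a median of -0.29, beside 4758 of all 9433 genes below 0. Because the members were chosen for varying with Mlc2, the choice favours its direction without fixing it, and this count supports nothing. The first 15 ranged from -2.01 to -0.81 and the other 45 from -1.82 to -0.08. At an unadjusted p under 0.05 there were 42 members, against 17.2% of all genes, a share that the choice of genes following Mlc2 also raises.

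In gamergates with Kr-h1 knockdown, again 0 members were called, against a background of 0.721% of all genes. The log2 difference for Mlc2 was -0.20 ± 0.49 (SE, adjusted p = 0.813 by limma). That value was -0.64 without worker GFP replicate 4 and gamergate Kr-h1 replicate 2, 0.36 in round 2 brains alone and -0.70 in round 3 brains alone. The median over the members was 0.03, with 24 below 0 and 36 above, beside 4491 below and 4942 above among all genes. The smallest p below 0 belonged to TpnT (-0.59 ± 0.37), AQP (-0.15 ± 0.09) and LOC105185363 (-0.22 ± 0.15). Above 0 it belonged to LOC105187694 (0.21 ± 0.08), Rab2 (0.19 ± 0.07) and LOC105191665 (0.18 ± 0.07), with limma adjusted p of 0.1, 0.115 and 0.124. At an unadjusted p under 0.05 there were 7 members (11.7%), against 26.4% of all genes.

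The difference between the castes in the knockdown effect, gamergate minus worker, was called for 13 members, all above 0. That is 13 of 60 beside a background of 16.5% of all 9433 genes (893 above 0 and 661 below). The share among members is thus near that of all genes. Their shared sign is favoured by how they were chosen and supports nothing. Only 1 of the 13 belongs to the first 15 members. LOC105181245 had a difference of 2.15 ± 0.73 (SE; limma adjusted p = 0.044), with 0.25 ± 0.50 in gamergates and -1.90 ± 0.53 in workers. It rests on few brains, since without worker GFP replicate 4 and gamergate Kr-h1 replicate 2 it was 1.48 with a limma adjusted p of 0.0526, and the call was lost in 25 of 43 alternatives. Mf (1.52 ± 0.54, adjusted p = 0.0526) and Mlc2 (1.82 ± 0.71, adjusted p = 0.0726) missed the threshold in the same limma fit.

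The other 12 called members were from the lower part. LOC112589087, a long noncoding RNA, had a difference of 1.80 ± 0.59 (SE; limma adjusted p = 0.0379). It was measured by few recovered reads, from 1 to 44 per library with a median of 6. It had 1.58 to 4.56 FPKM in Kr-h1 gamergates and 0.3 to 4.48 FPKM in GFP gamergates. In workers it had 0.427 to 6.44 FPKM after Kr-h1 siRNA and 1.14 to 14.3 FPKM after GFP siRNA, where replicates 4 and 5 had 13.8 and 14.3 FPKM and the others at most 4.63. Without those replicates the difference was 1.26 (limma adjusted p = 0.101). The remaining 11 had differences of 0.27 (ND-PDSW) to 0.53 (LOC105187481), with MSBP and CSN7 at 0.49, CycG at 0.39 and Rab2 at 0.32. Without worker GFP replicates 4 and 5, 4 members were called, beside 620 of all genes. With either experimental round alone 0 members and 0 of all genes were called.

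**Figure D5:**
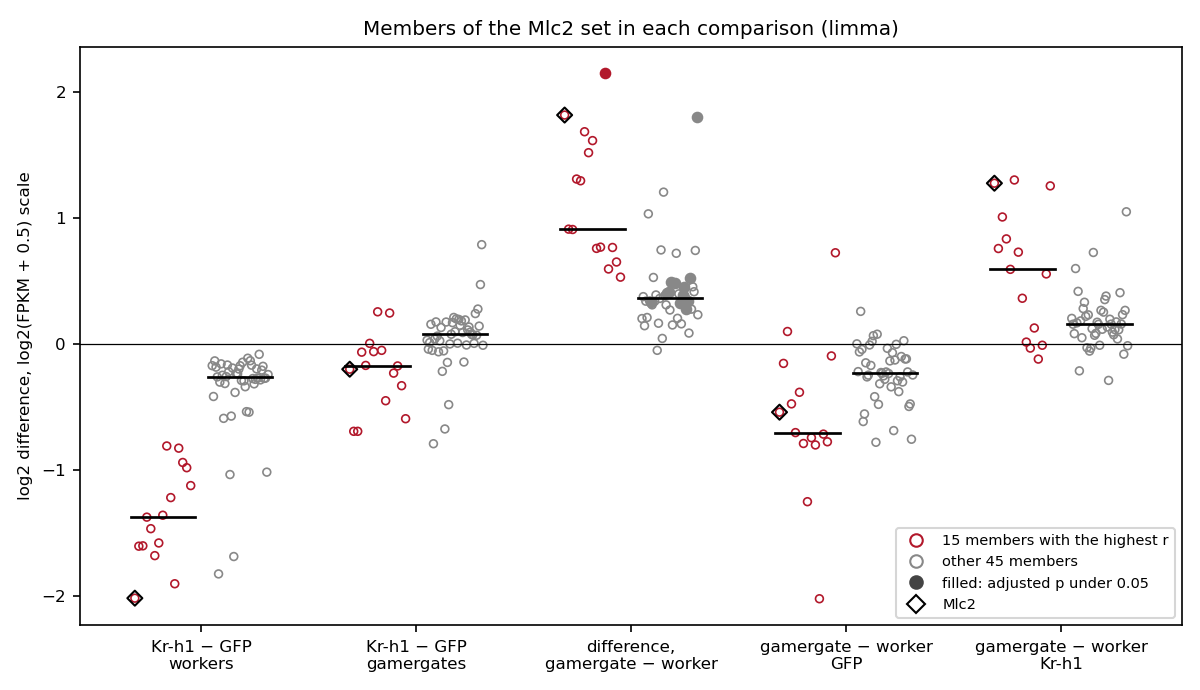
Each point is the limma log2 difference of 1 member in 1 of the 5 comparisons, in red for the 15 members with the highest r and in grey for the other 45, with the median of each as a line and Mlc2 as a diamond. Filled points are the 13 members called for the caste difference in knockdown effect, and no point is filled in the other 4 comparisons.

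Between castes, Mlc2 averaged 7.95 ± 3.57 FPKM (SD, n = 9) in GFP gamergates and 21.1 ± 14.6 FPKM (SD, n = 8) in GFP workers. Caste and sequencing run coincide in round 2, so the fit separates them only through round 3, where the gamergates averaged 8.98 ± 4.14 FPKM (n = 5) and the workers 14.9 ± 13.6 FPKM (n = 3). With the batch term the log2 difference for Mlc2 was -0.54 ± 0.63 (SE, adjusted p = 0.625 by limma). In this comparison 0 members were called, against a background of 1.33% of all genes. Of the members 52 lay below 0, with a median of -0.25, beside 4858 of all 9433 genes. Choosing genes that follow Mlc2 favours its direction, so this count supports nothing. Without the batch term 24 members were called, in a fit that called 4436 genes in all.

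The smallest p in the GFP controls belonged to LOC105188030 (-0.38 ± 0.10, limma adjusted p = 0.052), the noncoding LOC105186555 (-0.78 ± 0.24, adjusted p = 0.0827) and LOC105181245 (-2.02 ± 0.64, adjusted p = 0.085). LOC105181245 had 2.42, 1.42, 6.07, 3.23, 2.87, 2.96, 2.55, 3.25 and 2.10 FPKM in gamergate GFP replicates 1 to 9. It had 13.3, 8.69, 4.56, 19.96, 10.9, 7.31, 8.83 and 21.3 FPKM in worker GFP replicates 1 to 8. Only 1 gamergate brain, replicate 3, lay above the lowest worker brain. In round 3 alone its difference was -1.86 with a limma adjusted p of 0.0281, in 5 gamergate and 3 worker brains on 1 run. That subset was chosen after seeing the data, and the gene was called in 5 of 42 alternatives, round 3 alone included. Above 0, TpnT (0.72 ± 0.47), LOC105184357 and LOC105182369 had the smallest p, and none was called.

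After Kr-h1 siRNA, Mlc2 averaged 11.7 ± 18.7 FPKM (SD, n = 8) in gamergates and 5.01 ± 4.62 FPKM (SD, n = 7) in workers, which is a log2 difference of 1.27 ± 0.65 (SE, adjusted p = 0.349 by limma). No member was called (0 of 60), against a background of 0.17% of all genes. Above 0 lay 49 members, with a median of 0.17, beside 4745 of all 9433 genes. That count too is favoured by choosing genes that follow Mlc2, and it supports nothing. The smallest p above 0 belonged to LOC105187481 (0.41 ± 0.13, limma adjusted p = 0.152), LOC105188095 (0.33 ± 0.11, adjusted p = 0.184) and TpnT (1.25 ± 0.49, adjusted p = 0.239). The smallest below 0 belonged to LOC105190236, LOC112588344 and l(3)87Df. Of the 27 listed muscle genes that are no members, 0 were called in either knockdown comparison or either caste comparison. In the difference of the knockdown effect 0 of these 27 were called higher and 6 lower (limma), with a median of -0.28, beside 893 higher and 661 lower of all 9433 genes. These 27 are the listed genes left over by the same selection, so their signs are not set against those of the members. The 5 comparisons share libraries, so their values are not independent of each other.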

How the data were processed

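Strand-specific RNA sequencing libraries of single central brains were prepared by the dUTP method, per the labels' protocols. The submitters' processing notes name bcl2fastq, STAR, featureCounts and DESeq2 without versions. The authors deposited 1 table of FPKM values, with no genome build, annotation or scaling factor named in the labels. Names and gene order came from RefSeq assembly Hsal_v8.6, which matched 13989 of the 14001 identifiers.

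Values were tested as log2(FPKM + 0.5) with limma 3.58.1 (R 4.3.3) for 9433 genes, with 4 groups, a batch term of 3 levels (round and run, from the sample descriptions), a mean-variance trend and Benjamini-Hochberg adjustment. Fold changes on this scale understate low genes. Reads were recovered from FPKM steps (59 of 60 members, tolerance 0.02 reads plus a term growing with the value). Even read numbers made up 55.1%, so reads may not be independent fragments. The scripts were tested on simulated data.

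The members and marker lists were chosen with earlier results of these data known. Named are the first 10 members by r, those on a marker list, the 5 highest and 5 lowest by median, the 3 on each side of the edge and, per comparison, called members or the 3 smallest p per direction. Brains are the replicates. Alternatives covered pseudocount, filter, scaling, batch, block, array weights and each library left out.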

Additional observations from a re-analysis of the deposited data

Results flagged for a closer look

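Single brains that stood apart from the rest of their group, by Dixon's test at its 95% critical value on log2(FPKM + 0.5), were found in 26 of 180 gene and group combinations for the 45 genes named. Chance flags about 1 in 20 such combinations where values played no part in the choice of genes. Most of these genes were chosen for following Mlc2 over the same brains, so that rate does not apply to them.

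Gamergate Kr-h1 replicate 2 accounted for 15. It was highest of its group for the thick filament genes Mlc1 (148 FPKM, next brain 29.7) and Mhc (72.1, next 9.91). It was also highest for the thin filament and calcium genes wupA (35.7, next 7.05), Tm2 (69.7, next 11.4), TpnCI (21.3, next 2.71) and Scp1 (66.4, next 3.46). The same held for the neighbours LOC105188754 (126, next 8.98), LOC105188751 (183, next 12.6) and LOC105188753 (21.5, next 2.27). LOC105181245 was at 79.7 FPKM there (next 7.33), Actn at 22.5 (next 15.8), tn at 3.28 (next 1.10) and hlk at 4.56 (next 1.18). LOC105190236 was at 8.29 FPKM (next 2.04) and LOC105192245 at 20.4 (next 6.66). Mlc2 itself, at 57.5 FPKM, was not past the critical value, in a group that ran down to 1.62 FPKM.

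The other 11 lay in different brains. Worker GFP replicate 4 was high for Actn (35.1 FPKM, next 20.8), and worker GFP replicate 2 was low for tn (0.298, next 0.838). In Kr-h1 workers, replicate 1 was high for LOC105180536 (1.89, next 0.768) and Rab2 (57.6, next 47.0). Replicate 2 of that group was high for tn (1.35, next 0.657) and low for LOC105186555 (4.51, next 8.70). Gamergate Kr-h1 replicate 1 was high for CSN7 (15.5, next 11.4) and LOC105187890 (9.77, next 7.40). In GFP gamergates, replicate 3 was high for MSBP (61.6, next 46.0) and l(3)87Df (32.4, next 23.4), and replicate 1 was low for LOC105185841 (58.7, next 77.1).

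The knockdown effect was called as differing between the castes for 13 members in the fit reported (limma interaction contrast, gamergate minus worker). With no batch term, or in either round alone, 0 of all genes were called. The log2 differences were 2.15 for LOC105181245, 1.80 for LOC112589087, 0.53 for LOC105187481, 0.49 for MSBP, 0.49 for CSN7 and 0.45 for LOC105188030. They were 0.41 for LOC105187694, 0.40 for LOC105190917, 0.39 for CycG, 0.34 for LOC105182804, 0.33 for LOC105191665, 0.32 for Rab2 and 0.27 for ND-PDSW. The share among members was near the 16.5% of all genes.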

How the results depend on the processing

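Membership depended most on which libraries were used. Of the 60 members, 7 were kept under all 46 alternatives (Mlc2, LOC105188754, LOC105188751, wupA, Tm2, Mf and Mlc1). The count kept was 27 after group and batch means were removed, 18 in GFP libraries only, 23 in worker libraries only and 22 in gamergate libraries only. With each library left out it ran from 38 (without gamergate Kr-h1 replicate 2) to 59. Chosen after seeing the data, it was 39 without worker GFP replicates 4 and 5, 33 without worker GFP replicate 4 and gamergate Kr-h1 replicate 2, 32 in round 2 only and 12 in round 3 only.

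The 13 members called for the difference of the knockdown effect became 8 with no filter, 0 with no batch term and 5 with array weights, while 1554 called genes in all became 1067, 0 and 817. They became 0 in round 2 only and 0 in round 3 only (0 genes in all in each), 4 without worker GFP replicates 4 and 5 (620 genes), and 6 without worker GFP replicate 4 and gamergate Kr-h1 replicate 2 (984 genes). With each library left out the count ran from 3 (without worker Kr-h1 replicate 2) to 19 (without worker Kr-h1 replicate 1), and it was 6 to 8 without each of worker GFP replicates 2 and 4, replicates 1, 2 and 7 of the GFP gamergates, worker Kr-h1 replicate 4 and gamergate Kr-h1 replicate 1. The cause was not tested. For caste in GFP controls, 24 members were called with no batch term (4436 genes in all), 5 with array weights (1106), 2 in round 3 only (56), 1 without worker GFP replicate 4 and gamergate Kr-h1 replicate 2 (91), and 0 to 1 with each library left out. After Kr-h1 siRNA, 1 was called with array weights (395 genes). Both knockdown comparisons had 0 members called under every alternative run.

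Mlc2 in gamergates ran from -0.64 to 0.052 with each library left out, above 0 without gamergate Kr-h1 replicate 3, and was 0.36 in round 2 only. LOC105185363 reversed to 0.16 in round 2 only for gamergates, and for the difference to 0.0017 with no batch term, 0.33 in round 2 only and -0.16 to 0.010 with each library left out. With no batch term TpnT (-0.26) and LOC105184357 (-0.35) reversed in GFP controls, and LOC105190236 (0.13) and l(3)87Df (0.044, and -0.14 to 0.0080 with each library left out) after Kr-h1 siRNA. None of these was called in the fit reported. The call of LOC105181245 for the difference was lost in 25 of 43 alternatives, that of LOC112589087 in 18, CSN7 in 18, MSBP in 6 and LOC105187481 in 4. With a replicate block 3 members (698 genes in all) were called for the difference and 0 in the other 4 comparisons. On average no pairing by replicate number was seen, which does not settle whether any brains were paired. Same-numbered brains of different groups had a mean residual correlation of -0.01 over 45 pairs, with 18 above 0.1. Other-numbered brains of different groups had a mean of 0.001 over 338 pairs, with 118 above 0.1. Some same-numbered brains came from different rounds, such as replicate 5 of the GFP workers (round 2) and of the GFP gamergates (round 3).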
